A study of Mus musculus with 4 samples.

Results

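The E proteins and their Id inhibitors were 7 genes given by name: the E protein genes Tcf3, Tcf4 and Tcf12, and the inhibitor genes Id1, Id2, Id3 and Id4. Their regions were the ATAC-seq peaks that overlapped an annotated gene body extended by 20 kb on each side, and overlapping peaks of the WT and KO lists were joined into 1 region. This gave 36 regions, 26 at the E protein genes and 10 at the Id genes, of 45475 regions in the genome. The rule that assigns regions to the genes uses no measured value.

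ATAC-seq uses a transposase to insert adapters into open DNA, so that a peak marks accessible chromatin. The cells were hematopoietic stem cells (HSCs) from bone marrow of adult C57BL/6 mice, sorted as LSK cells with the surface phenotype CD150+CD34-CD48- by the labels (the study's methods give the gate without CD34), and 5000 cells went into each reaction. Both genotypes carried floxed alleles of Med23, a subunit of the Mediator complex that links transcription factors to RNA polymerase II. The WT mice (Med23floxp/flowp) lacked cre, and the KO mice (Mx1-cre;Med23floxp/flowp) carried cre under the interferon-inducible Mx1 promoter, which is active in many blood and non-blood cells and is switched on by injecting poly(I:C). The question was whether accessibility at these genes differed between WT and KO HSCs. The labels give 2 samples for each genotype, but both name the same list, so the data were 1 WT list and 1 KO list. No value below could be set against a spread between replicates, no test was run, and the genotype and the library cannot be told apart.

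E proteins are basic helix-loop-helix transcription factors that bind the E-box, CANNTG, as dimers with each other or with cell-type-specific partners such as Tal1 and Lyl1. Id proteins have the dimerization helices but no basic DNA-binding region, so an E protein bound to an Id protein cannot bind DNA. In bone marrow, E proteins are known for their part in lymphoid specification and in holding progenitors out of the cell cycle, and Id proteins for restraining both.

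The WT list held 37887 peaks on the autosomes and chromosome X and the KO list 37615. Both had a smallest summit pileup of 6, a pileup being the number of reads or fragments stacked at the highest point of a peak, recovered from the deposited fold enrichment and −log10 p. Read totals are unknown. The median pileup was 18 in WT and 19 in KO, and the median fold enrichment over the local background was 6.38 and 7.44. The promoter of Med23 had a peak in each list, with a pileup of 64 in WT and 85 in KO. No other peak lay in the gene or within 20 kb of it, and the loss of the floxed segment is therefore not visible in these lists. The paper reports, from other experiments, efficient loss of Med23 in the hematopoietic system once poly(I:C) was given. Of 10 stem cell markers, 6 had a peak summit within 1000 bp of a start in both lists and Hoxa9 in the WT list only. Slamf1, which encodes CD150, Ly6a and Procr had no such peak, although each had peaks farther off. The same count was 2 of 6 for T cells, 1 of 6 for B cells, 2 of 8 for granulocytes and monocytes, 2 of 6 for erythroid cells and 3 of 6 for stroma and endothelium. A further 1 to 2 genes of each of these lists except the erythroid one had the promoter peak in WT only. No marker had it in KO only. Over all coding genes such a peak was in both lists at 58.1%, in WT only at 3.07% and in KO only at 2.69%. A call in 1 list only depends on where the summit lies, and Hoxa9 had 7 peaks within 20 kb of the gene in each list. Open promoters alone do not name a cell type, the part of other cells in the values was not tested, and a change in the share of cells cannot be told apart from a change in accessibility per cell.

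The promoter sequences are shown here because each lies inside or next to a peak described below, and E-boxes can be read in them directly. They are the upstream parts of RefSeq promoter windows of GRCm38.p6 (mm10), cut back to the bases outside annotated UTRs and coding exons and written 5′ to 3′ on the strand of the gene, with E-boxes in capitals. The Tcf3 sequence is chr10:80433648-80433885 (minus strand), that of Tcf12 chr9:72111872-72112069 (minus), that of Id2 chr12:25096254-25096342 (minus) and that of Id4 chr13:48260866-48261115 (plus). Another Tcf12 promoter window, chr9:72111203-72111451 (minus), also overlaps peaks of both lists and is not printed. It held the E-box CAAGTG and none of the other motifs named below. For Tcf4, Id1 and Id3 no sequence is printed. The Id2 sequence is upstream of the 2 shorter Id2 transcripts and lies in an intron of the longest one. The last sequence, chr13:48273885-48274134 (minus), is upstream of the noncoding RNA gene A330048O09Rik near Id4 and lies at a peak of the KO list only.
Tcf3: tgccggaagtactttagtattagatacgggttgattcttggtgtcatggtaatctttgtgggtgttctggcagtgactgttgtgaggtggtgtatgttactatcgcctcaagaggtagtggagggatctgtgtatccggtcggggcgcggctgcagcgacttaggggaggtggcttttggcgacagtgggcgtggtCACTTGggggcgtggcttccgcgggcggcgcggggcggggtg
Tcf12: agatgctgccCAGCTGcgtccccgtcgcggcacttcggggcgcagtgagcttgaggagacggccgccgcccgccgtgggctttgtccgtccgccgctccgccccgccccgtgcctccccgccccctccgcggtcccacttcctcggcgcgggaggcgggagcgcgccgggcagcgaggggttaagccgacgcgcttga
Id2: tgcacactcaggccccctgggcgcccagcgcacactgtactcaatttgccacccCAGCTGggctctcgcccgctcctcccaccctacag
Id4: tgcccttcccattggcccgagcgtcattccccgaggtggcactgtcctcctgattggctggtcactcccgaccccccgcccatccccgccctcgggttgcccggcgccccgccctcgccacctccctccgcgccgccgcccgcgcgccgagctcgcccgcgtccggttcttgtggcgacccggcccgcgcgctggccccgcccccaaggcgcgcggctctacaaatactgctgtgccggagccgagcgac
A330048O09Rik: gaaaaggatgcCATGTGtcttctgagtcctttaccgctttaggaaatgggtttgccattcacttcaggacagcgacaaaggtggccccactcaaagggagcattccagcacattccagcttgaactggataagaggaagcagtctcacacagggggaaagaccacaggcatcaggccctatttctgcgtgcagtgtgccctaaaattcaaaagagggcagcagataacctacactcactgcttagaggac
Each of the printed Tcf3, Tcf12, Id2 and A330048O09Rik windows held 1 E-box and the Id4 window held none. The letters were CACTTG at Tcf3, CAGCTG at Tcf12 and Id2, and CATGTG at A330048O09Rik. Of 32851 RefSeq promoters, 66.2% held CANNTG in the 250 bases before the start on either strand, and 13.0% held the CAGCTG form. The Id2 and Id4 windows also held GGCGCC, a GC-rich SMAD-type motif found in 9.59% of promoters. The printed Tcf12 window held GAGGAAGT, the PU.1-type motif found in 2.44%. The A330048O09Rik window held the GATA-type motif AGATAA (9.99% of promoters) and the RUNX-type motif TGTGGT (14.0%). A match describes the letters only and is not evidence that a factor was bound, and these windows are of unequal length.

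All 7 genes had at least 1 region found in both lists, and each had a peak with its summit within 1000 bp of one of its own starts in both lists. Across the coding genome such a promoter peak was present in both lists at 58.1% of 21755 genes, in WT only at 3.07% and in KO only at 2.69%. Of the 36 regions, 19 were in both lists (52.8%, 95% Wilson interval 37.0 to 68.0), against 64.8% of all regions. A further 8 were in the WT list only (22.2%, genome 18.1%) and 9 in the KO list only (25.0%, genome 17.2%). The genome's share in both lists lay inside the interval of the members, which covers counting error only and treats regions as independent, although 19 of the 36 belong to Tcf4.

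The 2 gene groups had similar shares. At the E protein genes 14 of 26 regions were in both lists (53.8%, interval 35.5 to 71.2), with 6 in each list alone. At the Id genes 5 of 10 were in both lists (50.0%, 23.7 to 76.3), with 2 in WT only and 3 in KO only. Of the 12 regions with a summit within 1000 bp of a start of their own gene, 10 were in both lists, against 9 of the 24 elsewhere. Counted by starts of any gene, 11 of 15 regions at a start (73.3%) and 8 of 21 away from starts (38.1%) were in both lists. Over the genome the shares were 83.9% at starts and 54.0% away from them, so starts had the higher share there too. The 17 regions found in 1 list only had pileups of 7 to 19 (median 11.0), and 1 of them reached a −log10 q of 10. The same values were not computed for regions of 1 list only over the genome, so they are not read as particular to the members.

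**Figure D1:**
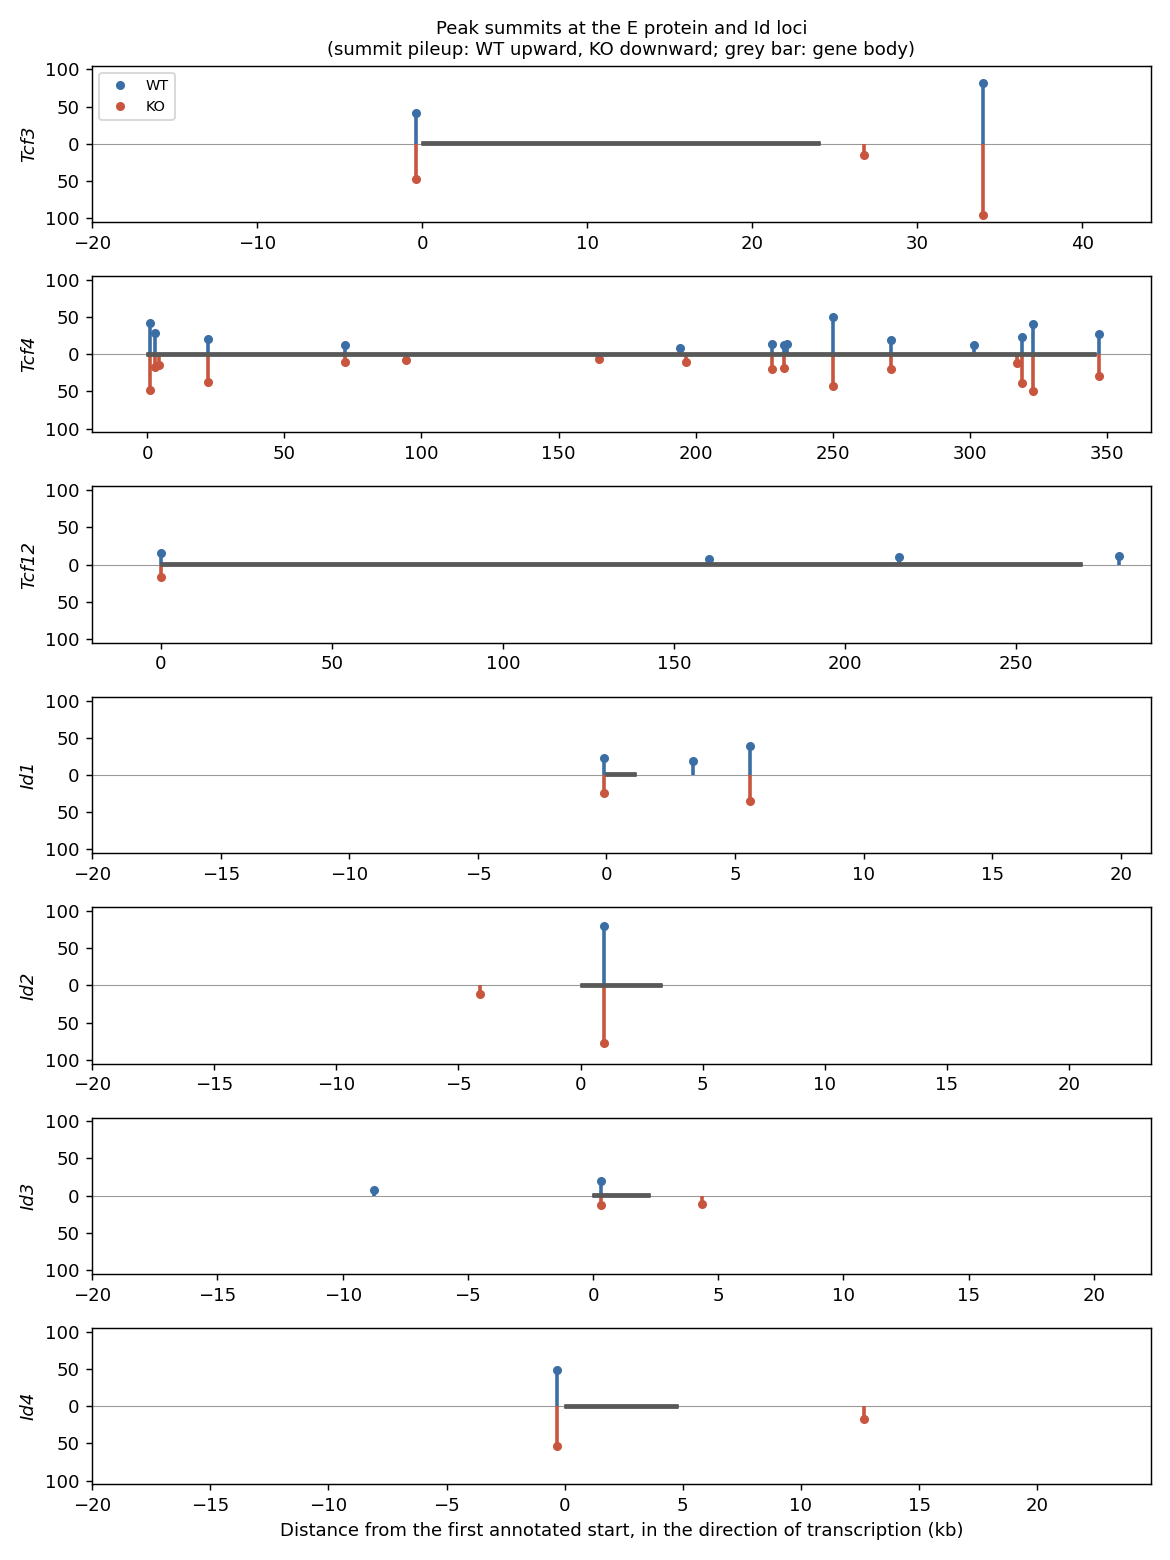
Peak summits at the 7 genes, with distance from the first annotated start in kb on the horizontal axis and summit pileup on the vertical axis, WT peaks upward and KO peaks downward, and the gene body as a grey bar. Summits at starts stand in both directions at each gene, while the 17 regions of 1 list only are short stems of pileup 7 to 19.

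Bases covered by peaks summed to 20412 in WT and 21185 in KO over the 7 windows, a KO to WT ratio of 1.04, against 0.993 over all coding genes. More bases were covered in KO at 4 of the 7 genes, against 49.0% of the 17663 coding genes with a peak. The E protein genes had 13609 bases in WT and 14314 in KO, a ratio of 1.05, and the Id genes 6803 and 6871, a ratio of 1.01. These sums take in 8 regions in WT only and 9 in KO only. Of the latter, 1 of 672 bp in the Tcf3 window lay at a start of Uqcr11. Another, of 407 bp in the Id4 window, lay at a start of the noncoding gene A330048O09Rik. Among coding genes the KO minus WT difference had quartiles of −350 and 320 bp and a central 95% range of −1309 to 1275 bp, and each of the 7 genes fell inside that range. Tcf3 (937 bp), Tcf4 (611 bp), Tcf12 (−843 bp), Id1 (−406 bp) and Id4 (450 bp) lay outside the quartiles, and Id2 (−212 bp) and Id3 (236 bp) inside.

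**Figure D2:**
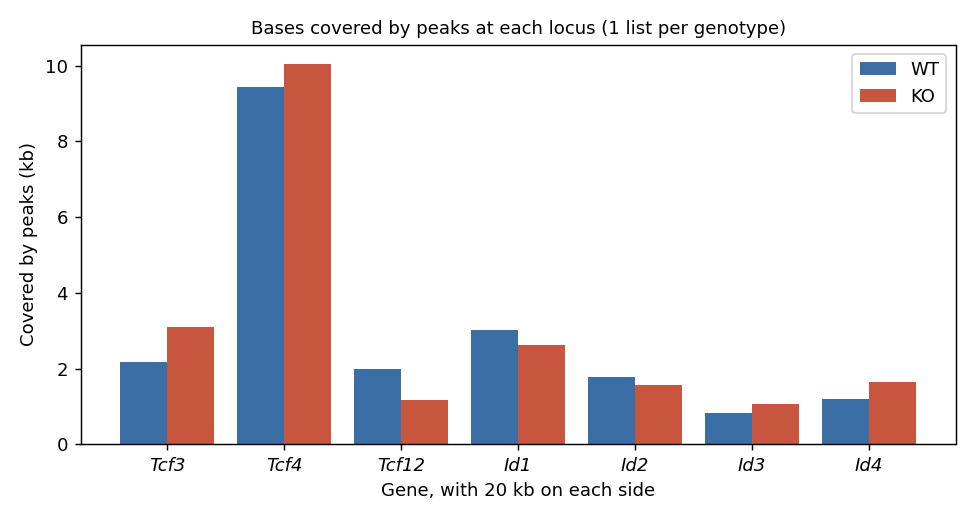
Bases covered by peaks in the window of each gene, with kb on the vertical axis and WT and KO bars side by side. Tcf4 stands far above the rest, at 9444 bp in WT against 10055 bp in KO, and the higher genotype is not the same at every gene.

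For the height of peaks, the KO to WT ratio of summit pileup over the genome-wide background of each list was taken on the log2 scale in regions with 1 peak of each list. The background was a pileup of 1.19 in WT and 1.13 in KO. Over 28909 such regions the median log2 ratio was 0.17, with quartiles of −0.10 and 0.43, so values are read against 0.17 rather than 0. All 19 shared regions of the members had 1 peak of each list, and the position given for such a region is that of the summit with the higher pileup. Their median was 0.19, with a range of −0.68 to 0.90, and 10 of 19 lay above the genome median (50.0% of all regions by construction). None of the 19 passed a 2-fold difference in either direction, against 2.61% of all regions higher and 0.370% lower in KO. Each ratio has an exact 95% binomial interval that covers counting error only. All 19 intervals held the genome median, and 2 of them, both at Tcf4, lay above 0.

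The shared regions of the E protein genes summed to a pileup of 430 in WT and 489 in KO, for a log2 ratio of 0.27 (interval 0.08 to 0.46) with 9 of 14 regions above the genome median. Those of the Id genes summed to 211 and 202, for a log2 ratio of 0.02 (−0.26 to 0.31) with 1 of 5 above it. The E protein sum takes in a region of the Tcf3 window that lay 140 bp from a start of Mbd3. That region had a pileup of 82 in WT and 96 in KO. The intervals of the 2 groups overlapped and both held 0.17. The authors' fold enrichment was higher in KO in 17 of the 19 regions, as it was in 77.5% of all regions. The recovered pileup was higher in 12, equal in 1 and lower in 6, against 54.6% of all regions higher. The fold enrichment divides by the local background as well, and that background had a median of 1.85 over the WT list and 1.67 over the KO list.

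**Figure D3:**
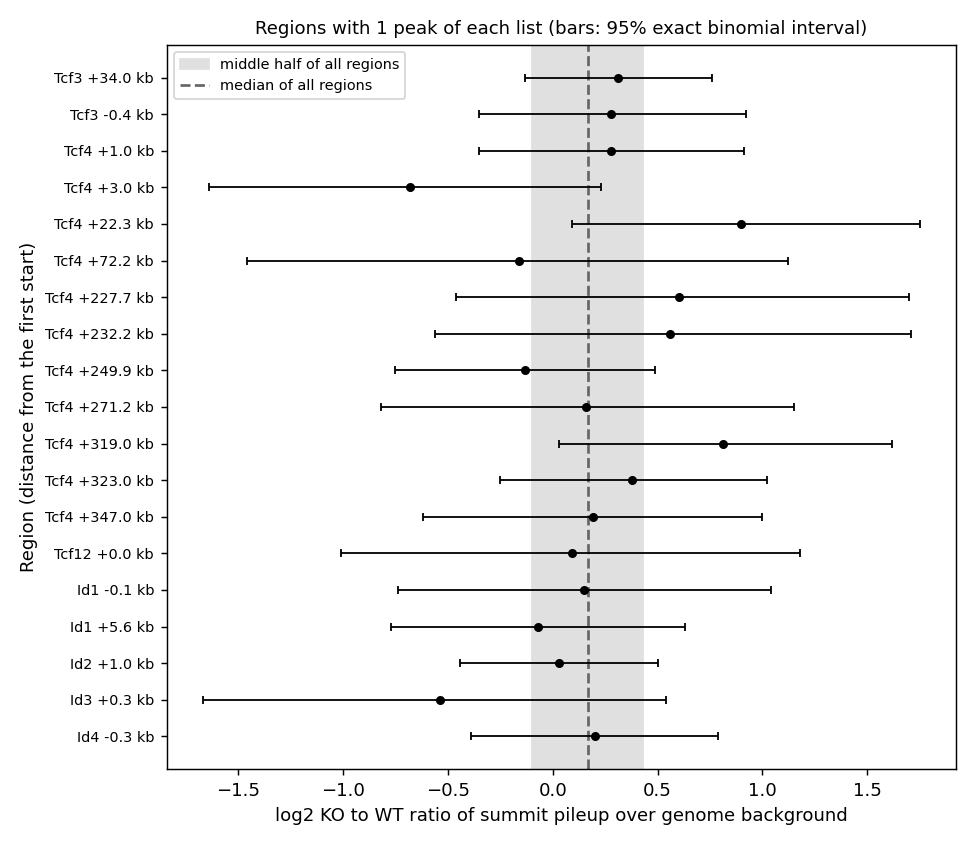
Log2 KO to WT ratio of summit pileup over genome background in the 19 shared regions, as points with 95% exact binomial intervals. The dashed line is the median of all 28909 such regions (0.17) and the grey band their quartiles, and every interval crosses the dashed line.

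Tcf3 (ENSMUSG00000020167.14, chr10:80409514-80433647, minus strand, mm10) encodes E2A, whose splice forms E12 and E47 are needed for B cell development. Its window had 2 peaks in WT and 3 in KO, and 2166 and 3103 bases covered. The difference of 937 bp was at percentile 94.4 of coding genes, the highest of the 7. The promoter region, with its summit at −142 bp from the first start in WT and −394 bp in KO, both upstream, had a pileup of 41 in WT and 47 in KO. A ratio of 0.28 on the log2 scale (−0.35 to 0.92) came with a fold enrichment of 7.26 in WT and 11.9 in KO over local backgrounds of 4.79 and 3.02. The WT summit is inside the printed Tcf3 sequence, and the KO summit, 252 bp away, lay beyond its upstream end. Summits shifted by a median of 42 bp over all shared regions, with an upper quartile of 103 bp.

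The other Tcf3 regions belonged by position to neighbouring genes. The region 34.0 kb downstream of the first start, 140 bp from a start of Mbd3, had a pileup of 82 in WT and 96 in KO, for a log2 ratio of 0.31 (−0.13 to 0.76). The region in KO only was 39 bp from a start of Uqcr11, with a pileup of 15 and a −log10 q of 9.39. That region was 672 bp wide and made up most of the difference in bases at Tcf3. At the Tcf3 promoter itself the peak was 939 bp wide in WT and 1139 bp in KO.

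Tcf4 (ENSMUSG00000053477.17, chr18:69343356-69689079, plus strand) encodes E2-2, the E protein known for plasmacytoid dendritic cell identity. It is the longest of the 7 genes, with 58 annotated starts, and had the most peaks, 14 in WT and 16 in KO. Both counts were above percentile 99 of coding genes, at 99.7 and 99.8. The density was 3.63 and 4.15 peaks per 100 kb, at percentiles 60.4 and 67.2, against medians of 2.62 and 2.54 per coding gene. Of its 19 regions 11 were in both lists, 3 in WT only and 5 in KO only, and 15 had their summit in an intron.

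At the Tcf4 starts, 5 regions were called, 4 of them in both lists. The region at an internal start, 249.9 kb into the gene, was the tallest in WT with a pileup of 50 and had 43 in KO, for a log2 ratio of −0.13 (−0.75 to 0.49). The region 1.0 kb from the first start had 42 in WT and 48 in KO, for a log2 ratio of 0.28 (−0.35 to 0.91). The next start region, 3.0 kb from the first start, went the other way, with 29 in WT and 17 in KO. The ratio of −0.68 on the log2 scale (−1.64 to 0.23) was the lowest of the 19 and at percentile 2.14 of all regions. A start at 72.2 kb had 13 in WT and 11 in KO, and a start region at 4.5 kb was in KO only with a pileup of 15 and a −log10 q of 3.00. The start regions of Tcf4 therefore did not share 1 direction, and each of the 4 intervals held 0.

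Away from the Tcf4 starts, the 3 regions with the highest pileup summed over both lists had higher pileups in KO. The region 22.3 kb into the gene had 21 in WT and 37 in KO, for a log2 ratio of 0.90 (0.09 to 1.75), the highest of the 19 and at percentile 96.0 of all regions. Near the 3′ end, the region at 319.0 kb had 23 and 38, for a log2 ratio of 0.81 (0.03 to 1.62), at percentile 93.9. Its neighbour at 323.0 kb had 40 and 49, for a log2 ratio of 0.38 (−0.25 to 1.02). By WT pileup alone the order would differ, since the region at 347.0 kb, past the 3′ end, had 27 in WT and 29 in KO, for a log2 ratio of 0.19 (−0.62 to 1.00). The regions at 227.7 kb and 232.2 kb had ratios of 0.60 and 0.56 at pileups of 20 or less. The 11 ratios at Tcf4 had a median of 0.28, and 7 of them were above the genome median. The summed pileup of the 11 regions was 291 in WT and 330 in KO, for a log2 ratio of 0.27 (0.04 to 0.50), and that interval also held 0.17. The 8 Tcf4 regions in 1 list only had pileups of 7 to 15. The WT-only region at 233.1 kb, with a pileup of 14, was 214 bp from the nearest KO peak.

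Tcf12 (ENSMUSG00000032228.16, chr9:71842688-72111871, minus strand) encodes HEB, the E protein known for T cell development. Although 269 kb long, it had 4 peaks in WT and 1 in KO, and 1999 and 1156 bases covered. The difference of −843 bp was at percentile 7.76 of coding genes and the lowest of the 7. The promoter peak was in both lists with a pileup of 16 in each, for a log2 ratio of 0.09 (−1.01 to 1.18). The WT summit was at the first start itself, next to the printed Tcf12 sequence, and the KO summit lay 413 bp into the gene. The 3 WT-only regions had pileups of 10, 8 and 11, at 215.7, 160.2 and 279.8 kb from the first start, and −log10 q of 4.86, 3.10 and 5.80. The region at 215.7 kb was 61 bp from the start of a shorter Tcf12 transcript. Their pileups are below the median of 18 over the WT list, and whether they differ between the genotypes was not tested.

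Id1 (ENSMUSG00000042745.9, chr2:152736251-152737410, plus strand) encodes an inhibitor induced by BMP signals. Its promoter region had a pileup of 23 in WT and 24 in KO, for a log2 ratio of 0.15 (−0.74 to 1.04), and the summits of the 2 lists were 1 bp apart. A taller region 5.6 kb downstream of the start had 39 in WT and 35 in KO, for a log2 ratio of −0.07 (−0.77 to 0.63). Between them, at 3.4 kb, a region with a pileup of 19 was in WT only. It had the highest pileup of the regions in 1 list only, but a fold enrichment of 2.89 over a local background of 5.91, at percentile 0.451 of the WT list.

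Id2 (ENSMUSG00000020644.9, chr12:25093799-25097140, minus strand) encodes the inhibitor known for innate lymphoid and natural killer cells. It had the tallest promoter of the 7 in both lists, with a pileup of 80 in WT and 77 in KO, the first at percentile 96.3 of the WT list. The log2 ratio was 0.03 (−0.44 to 0.50) and the summits were 1 bp apart, 95 bp from an internal start and just downstream of the printed Id2 sequence. The peak was 1766 bp wide in WT and 1247 bp in KO. A KO-only region at −4.1 kb, upstream, had a pileup of 11 and a fold enrichment of 3.43.

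Id3 (ENSMUSG00000007872.3, chr4:136143497-136145755, plus strand) encodes the inhibitor known for its part in lymphocyte maturation. Its start region had a pileup of 20 in WT and 13 in KO, for a log2 ratio of −0.54 (−1.67 to 0.54). This was the lowest ratio at an Id gene and at percentile 4.77 of all regions, and its interval held both 0 and the genome median. Fold enrichment at the 2 summits of this region, 71 bp apart, was 4.77 in WT and 5.45 in KO. That is the opposite order, over local backgrounds of 3.41 and 1.57. A WT-only region at −8.7 kb, upstream, had a pileup of 7 and a KO-only region 4.4 kb from the first start had 11.

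Id4 (ENSMUSG00000021379.2, chr13:48261228-48266026, plus strand) encodes the inhibitor best known from neural and mammary tissue. Its promoter region had a pileup of 49 in WT and 53 in KO, for a log2 ratio of 0.20 (−0.39 to 0.79), and covers the printed Id4 sequence, which also lies in introns of the noncoding genes A330033J07Rik and Gm49291. The second region, 12.7 kb from the Id4 start, was in KO only, with a pileup of 18, a fold enrichment of 8.94 and a −log10 q of 13.8. It was the strongest by −log10 q of the 17 regions in 1 list only. Its summit was 21 bp from a start of A330048O09Rik, whose upstream sequence is printed above, and the nearest WT peak was 11798 bp away.

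Ordered by promoter pileup, taking for each gene the start region with the highest pileup summed over both lists, the WT list ran Id2 (80), Tcf4 (50), Id4 (49), Tcf3 (41), Id1 (23), Id3 (20) and Tcf12 (16). In the KO list the order was Id2 (77), Id4 (53), Tcf3 (47), Tcf4 (43), Id1 (24), Tcf12 (16) and Id3 (13). For Tcf4 this is the internal start at 249.9 kb, and the start region at 1.0 kb had a pileup of 48 in KO. The Poisson interval of each gene overlapped that of its neighbour in both orders. Overlap of separate intervals does not decide whether neighbouring counts differ, and the order of neighbours was not tested. The lower bound for Id2, 63.4 in WT and 60.8 in KO, lay above the upper bounds for Id1 (34.5 and 35.7), Id3 (30.9 and 22.2) and Tcf12 (26.0 in both). A height compares how strongly a start was cut and is not a level of transcript.

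**Figure D4:**
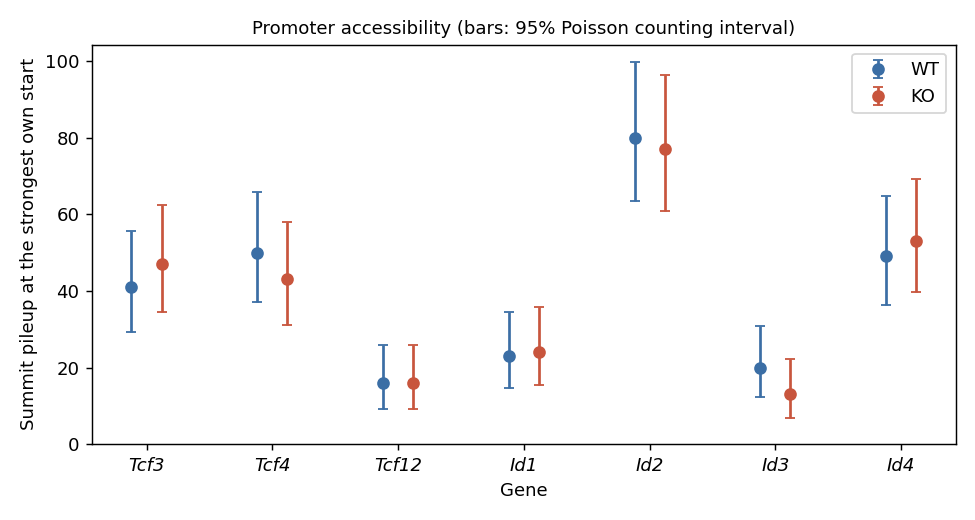
Summit pileup at 1 start region of each gene (the highest summed over both lists) in the WT and KO lists, with 95% Poisson intervals that cover counting error only. Id2 is the highest in both lists (80 and 77) and the WT and KO intervals overlap at each of the 7 genes.

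Within 200 bp windows centred on the summits, CANNTG was found in 14 of 27 member peaks in WT (51.9%) and 17 of 28 in KO (60.7%), against 58.3% and 58.9% of all peaks. The CAGCTG form was in 4 and 3 peaks (14.8% and 10.7%, all peaks 13.7% and 14.0%) and the CAGATG form in 3 and 2 (11.1% and 7.14%, all peaks 12.1% and 12.2%). The CAGGTG form was in 0 of 27 WT peaks (Wilson upper limit 12.5%, all peaks 11.7%) and in 3 of 28 KO peaks (10.7%, all peaks 11.2%). These 3 forms are subsets of CANNTG, and both strands were searched. Most member peaks of each list overlap a peak of the other list. In 11 of the 19 shared regions the 2 summits lay within 100 bp of each other, so the windows coincide only in part. GGCGCC was in 5 peaks of each list, 18.5% in WT and 17.9% in KO against 8.56% and 8.62% of all peaks, with Wilson intervals of 8.18 to 36.7 and 7.88 to 35.6. AGATAA was in 1 and 3 peaks (3.70% and 10.7%, all peaks 8.56% and 8.44%). TGTGGT was in 5 and 6 (18.5% and 21.4%, at most 20.1% of all peaks in either list). GAGGAAGT was in 1 and 1 (3.70% and 3.57%, all peaks 6.14% and 6.89%). For each of these motifs the share of all peaks lay inside the Wilson interval of the member peaks in both lists. The cyclic AMP response element TGACGTCA and the composite E-box and GATA element, bound by Tal1 with GATA factors, were in 0 peaks of either list, and they were in at most 1.97% of all peaks. The 12 regions at starts had a median GC content of 60.2%, and the 24 others 51.5%, beside 53.5% over all WT peaks and 53.0% over all KO peaks.

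Other genes of the pathway were counted from lists of known roles. Across all coding genes a promoter peak was in both lists at 58.1%. Of 20 dimer partners and cofactors of E proteins, which include Tal1, Lyl1, Lmo2 and Ldb1, 16 had a promoter peak in both lists, 3 in neither and Ascl2 in WT only. More bases were covered in KO at 8 and in WT at 10, with a median difference of −35.0 bp. The extremes were Ssbp3, a cofactor of Ldb1, at −1524 bp, and Lyl1, a dimer partner of E proteins, at 816 bp. A promoter peak in 1 list only depends on where the summit lies. Ascl2 had 1 peak within 20 kb of the gene in each list, covering 672 bases in WT and 1200 in KO. Of 20 genes known as E protein targets in lymphocytes, 9 had a promoter peak in both lists and 9 in neither. The interleukin-7 receptor gene Il7r had it in WT only, and Cdkn1a, which encodes the cell cycle inhibitor p21, in KO only. More bases were covered in KO at 8 and in WT at 12, with a median of −56.5 bp, between −1885 bp at Gfi1, a repressor in stem and lymphoid cells, and 1461 bp at Notch1, the receptor for T cell commitment. At Gfi1 the bases covered were 2187 in WT and 302 in KO. Cdkn1a had 2 peaks within 20 kb of the gene in each list, covering 1134 bases in WT and 1155 in KO. Il7r had 1 peak in WT, of 292 bases, and 0 in KO.

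Of 16 genes of the BMP, TGF-beta and serum signals that induce Id genes, 15 had a promoter peak in both lists and Acvrl1 in neither. More bases were covered in KO at 11 and in WT at 5, with a median difference of 256 bp. The extremes were Smad4, the shared SMAD of BMP and TGF-beta signals, at −2111 bp and Elk3, a serum response cofactor, at 1891 bp. Over all coding genes with a peak the median difference was −11.0 bp, and 49.0% had more bases covered in KO. Each list held genes in both directions, and Cd4, Cd79a and Pax5 stood both among the lymphoid targets and among the markers of T or B cells.

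**Figure D5:**
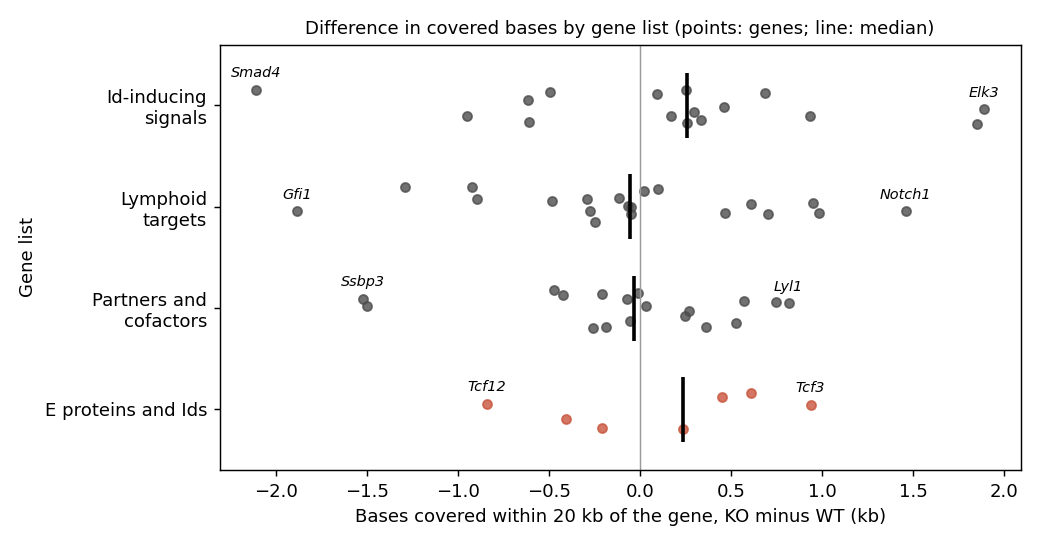
KO minus WT bases covered by peaks, with kb on the horizontal axis, for the 3 pathway lists and the 7 members, with 1 point for each gene that has a peak and a line at the median of each list. Each list has points on both sides of 0, and the lowest values are Smad4 (−2111 bp) and Gfi1 (−1885 bp).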

How the data were processed

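The data were ATAC-seq peak lists of mouse HSCs, 1 for each genotype. Whether replicate reads were pooled is not given in the sources used here. The authors trimmed reads with Trim Galore, aligned them to mm10 with Bowtie2, took out duplicates and mitochondrial reads with Picard, and used MACS2 to call peaks. The versions are not given in the sources used here. The deposited lists give the authors' fold enrichment of the summit over local background (a ratio), −log10 p and −log10 q, a display score (not used) and the summit position.

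Peaks on the 19 autosomes and chromosome X were used. Peaks that overlapped by 1 bp or more were joined into regions and assigned to genes with GENCODE M21 (GRCm38.p6, the same build). Pileup and local background were solved from the fold enrichment and −log10 p under the Poisson model of MACS2, and a whole-number pileup matched −log10 p within 0.001 for 99.99% of peaks. The genome background was the median of the 1000 lowest local backgrounds. The scripts were tested on simulated data. Tools were Python 3.11.15, pandas 2.3.3, SciPy 1.17.1 and pysam 0.24.0. Read depth is unknown, and intervals cover counting error only.

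At each gene the regions named were those with a summit within 1000 bp of an own start, the 3 tallest away from starts, the shared regions with the highest and lowest ratio, and regions of 1 list only with a −log10 q of at least 10. A region named for another reason was chosen after its values were seen. The members, gene lists and motifs were chosen with earlier results of these data known. Of the pathway lists, genes were named for a promoter peak in 1 list only or an extreme difference in bases. All listed genes matched the annotation by symbol.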

Additional observations from a re-analysis of the deposited data

How the results depend on the processing

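The share of member regions in both lists (52.8%) fell to 30.6% when summits had to lie within 100 bp of each other, and was within its interval under the other alternatives. The share over all regions was not computed under the 100 bp rule. Summit shifts over all regions with 1 peak of each list had an upper quartile of 103 bp, so that share would fall as well. The ratio of bases covered (1.04) was 1.06 with windows of 10 kb, 0.932 with 50 kb, 0.972 with the gene body alone, 1.01 where −log10 q was 5 or more and 1.41 where it was 10 or more, so its direction depends on the window. At the stricter threshold of 10 the Tcf12 difference turned from −843 to 1156 bp and the Id1 difference from −406 to 1378 bp, because their WT promoter peaks (9.99 and 9.50) fell below the threshold and the KO peaks (10.5 and 12.8) did not. The count of regions in 1 list only (17) was 10 with the gene body alone, 9 where −log10 q was 5 or more and 6, all in KO, where it was 10 or more. Of those 9 and 6, 3 and 5 were regions of both lists of which 1 peak fell below the threshold. These counts and the ratio of 1.41 were not computed over the genome, so they are not read as particular to the members. Fold enrichment was higher in KO in 77.5% of all regions with 1 peak of each list. The median log2 ratio (0.19) was 0.02 after centring at the genome median and 0.36 with the authors' fold enrichment, against a genome median of 0.26 for the latter. Chosen after seeing the data, leaving out Tcf4 gave a ratio of bases of 1.01 and 9 regions in 1 list only, and windows of 400 bp gave CANNTG in 74.1% of WT and 78.6% of KO member peaks, against 82.0% and 82.2% of all peaks.

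No paired analysis was possible because 1 list stands for both samples of a genotype, and for the same reason no replicate was left out. Most regions at the members rest on pileups under 50, at which a ratio has a wide counting interval, and regions of 1 list only had pileups of 7 to 19 where the smallest in each list is 6.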
